A study of Mus musculus with 50 samples.

Results

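In mice carrying mutations of Dnmt3a and Flt3, 3 libraries of LSK cells were set against 3 libraries of GMP cells. The 6 libraries were chosen by the genotype and the cell type in their titles, out of 50 libraries in the series. LSK cells are marrow cells that lack lineage markers and carry Sca-1 and Kit, a sort that holds the blood stem cells. GMP cells are granulocyte-monocyte progenitors. Per the labels' protocols, the mutations were switched on with Cre, Dre or Flp recombinase, the mice were killed at a set time or once they had symptoms, and cells were sorted by flow cytometry into Trizol. For the Dnmt3a Flt3 mice the labels give neither a time, an age, a strain, the exact alleles nor which recombinase was used. The 8 sorted libraries of Npm1 Flt3 mice in the same table (4 LSK, 4 GMP, also without a time) and 6 libraries of WT mice at 4 weeks in another table (3 LSK, 3 GMP) were used beside them. Both leukemia genotypes carry a Flt3 mutation, and there were no Dnmt3a-only or Flt3-free mutant libraries in the comparison. RNA was measured in bulk, so fewer cells of a type and less RNA per cell cannot be told apart.

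FLT3 is a receptor tyrosine kinase of early blood progenitors, and its mutated forms signal through STAT5 and the MAP kinases without waiting for ligand. DNMT3A is a DNA methyltransferase whose loss or mutation in stem cells is a common early step toward leukemia. On the normal path out of the stem cell compartment, cells lose Sca-1, gain Fc gamma receptors, and begin to make the proteases and myeloperoxidase that fill the primary granules of neutrophils. The comparison sets cells before and after that step beside each other in marrow that carries both mutations.

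Total counts were 64236575 to 114856425 in LSK and 77027663 to 109805326 in GMP, with 20580 to 25808 genes detected in LSK and 19587 to 23480 in GMP. The sample codes of LSK 1 and GMP 2 end in the letter that marks the other cell type elsewhere in the table, so the cell type of each library was checked first. Levels are CPM on library sizes scaled by TMM, called normalized CPM, and are listed for replicates 1, 2 and 3 of each group in that order. Mpo, the gene of myeloperoxidase, stood at 2418, 2292 and 2919 in LSK, against 54589, 44832 and 57549 in GMP. Elane, the gene of neutrophil elastase, stood at 49.8, 46 and 41.9 in LSK, against 4880.5, 3030.4 and 4752 in GMP. Ly6a, which encodes Sca-1 itself, stood at 50.8, 57.1 and 40.6 in LSK, against 2.4, 4.55 and 2.97 in GMP. All 3 genes separated the libraries by title with no overlap, as 34.1% of the 15846 tested genes did, and LSK 1 and GMP 2 each lay among the libraries of their titled cell type. The mean log2 level (with 1 added to the CPM) of the 50 genes most clearly higher in Npm1 Flt3 LSK, minus that of the 50 most clearly higher in Npm1 Flt3 GMP, was 2.11, 1.94 and 1.71 in LSK 1, 2 and 3, against -2.82, -2.40 and -2.55 in GMP 1, 2 and 3. Grouped by code letter instead, the same 6 libraries gave 0 genes past the threshold with edgeR's quasi-likelihood test, with 440 genes at an unadjusted p under 0.05. Titles were therefore followed, and the 4 libraries whose title and code agree were also fitted, once together with the Npm1 Flt3 libraries (the shared fit) and once alone.

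**Figure D1:**
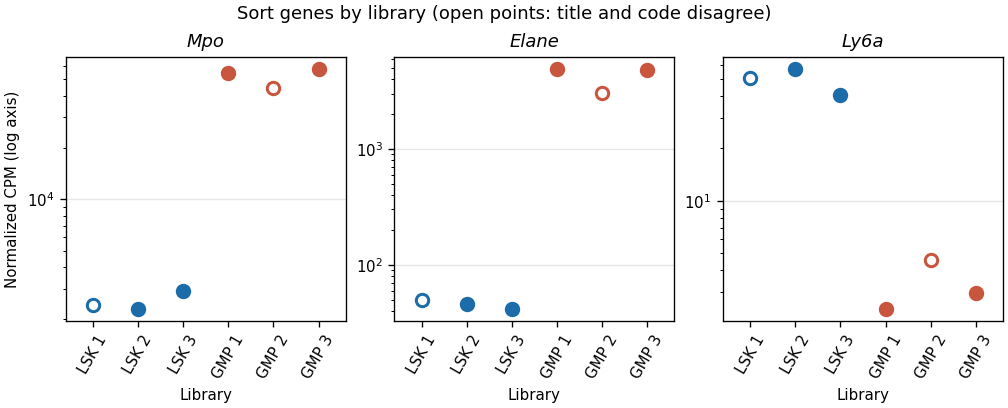
Normalized CPM (log axis) of Mpo, Elane and Ly6a in each Dnmt3a Flt3 library, with LSK in blue and GMP in red, and open points for the 2 libraries whose code names the other cell type. LSK 1, at 2418 for Mpo, sits with LSK 2 and 3, and GMP 2, at 44832, sits with GMP 1 and 3.

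LSK 1 differed from its group in other ways. It had the most counts of the LSK libraries, 114856425, and the fewest detected genes, 20580, against 25643 in LSK 2 and 25808 in LSK 3. Mitochondrially encoded genes took 0.217% of counts in LSK 1, against 0.423% in LSK 2 and 0.381% in LSK 3. The cause was not tested. In LSK 1, 101 of 15846 tested genes were more than 4-fold above both other LSK libraries, against 0 to 4 such genes in each of the other 5 libraries. Jun, an AP-1 early response gene, stood at 199, 13.8 and 10.1 in LSK, against 20.8, 28.8 and 19.6 in GMP. The value of LSK 1 was the highest of the 6, while LSK 2 and 3 lay below all 3 GMP libraries. Igj, the antibody joining chain gene, stood at 83.3, 20.9 and 7.06 in LSK, against 0, 0.366 and 0.0301 in GMP, and Emr1, the macrophage gene of F4/80, at 70.5, 21.5 and 9.13 in LSK, against 7.35, 15.6 and 12.9 in GMP. Counts without LSK 1 are given for each gene list whose calls moved. Codes of LSK 1 and 2 share the number 93, those of GMP 1 and 2 the number 95, and those of LSK 3 and GMP 3 the number 96. The labels do not say what the number marks or that replicates came from separate mice, so p-values measure only the spread between these libraries.

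Across the 15846 genes tested in the 6 libraries, 976 were higher and 1241 lower in LSK than in GMP (edgeR quasi-likelihood test, Benjamini-Hochberg adjusted p under 0.05). Called genes made up 14% of those tested, 6.16% higher and 7.83% lower, and the median log2 fold change of all tested genes was 0.05. Without GMP 1 the count of called genes was 1408, without GMP 2 it was 1434, without LSK 3 it was 1418, and without LSK 1 it was 2317. In the shared fit of the 4 libraries, in which the Npm1 Flt3 libraries help to set the spread, 397 of 21227 genes were called, 1.87%, with 123 higher, 0.579%, and 274 lower, 1.29%. Fitted alone, those 4 libraries gave 1420 called genes. In the shared fit the count was 103 without LSK 2, 139 without GMP 1, 146 without GMP 3 and 166 without LSK 3, each time with a single library left on one side.

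The gene with the smallest p, Hk3, a hexokinase of myeloid cells, stood at 234, 213 and 221 in LSK, against 1366, 1337 and 1415 in GMP. Its log2 fold change was -2.63 ± 0.06 (adjusted p = 5.4e-06) by edgeR. Atp8b4, which encodes a phospholipid flippase, stood at 125, 145 and 145 in LSK, against 1370.2, 1364 and 1359 in GMP, a log2 fold change of -3.30 ± 0.08 (adjusted p = 5.4e-06). Gstm1, a glutathione transferase gene, stood at 119.6, 116 and 141 in LSK, against 2269, 1956 and 2336 in GMP, and Plac8, a small cysteine-rich protein gene of myeloid progenitors, at 345, 367 and 345 in LSK, against 1822, 1770.0 and 1999 in GMP. In these 4 genes every GMP library was at least several times above every LSK library. Mpo, at -4.36 ± 0.14 (adjusted p = 1.24e-05), and Chdh, the choline dehydrogenase gene, at -3.58 ± 0.10 (adjusted p = 8.8e-06), completed the 6 smallest p-values, all of them falls in LSK.

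The abundant genes with large rises in LSK, called in the shared fit of the 4 libraries, included a cytokine receptor, a light chain, a pair of GTPases and a kinase. Il2ra, the alpha chain of the interleukin-2 receptor and a known STAT5 target, stood at 37.4, 57.3 and 42.5 in LSK, against 0.0843, 1.11 and 0.0703 in GMP. GMP 2 was the highest of the GMP libraries and still far below every LSK library, and the log2 fold change was 6.79 ± 1.04 (adjusted p = 0.00574) in the 6 libraries. Pim2, a serine-threonine kinase gene of cell survival, stood at 572, 559 and 423 in LSK, against 24.5, 17.5 and 22.9 in GMP, a log2 fold change of 4.58 ± 0.18 (adjusted p = 2.31e-05). Igkc, the kappa light chain constant gene, stood at 101, 48.4 and 30.5 in LSK, against 0, 0.0423 and 0.271 in GMP. LSK 1 was the highest of the 6 libraries for Igkc, and GMP 1 had no count at all.

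Other large rises were Arhgap12, a GTPase activating protein gene, at 33.1, 24.7 and 40.5 in LSK, against 0.759, 0.479 and 1.22 in GMP, and Timp3, an inhibitor of matrix metalloproteinases, at 40.3, 46.1 and 48.8 in LSK, against 3.39, 2.2 and 0.632 in GMP. Scarf1, a scavenger receptor gene, stood at 116, 115 and 143 in LSK, against 10.3, 6.53 and 4.08 in GMP. Havcr2, which encodes TIM-3, an immune receptor found on leukemic stem cells in humans, stood at 114, 75.6 and 49.96 in LSK, against 7.32, 4.01 and 4.58 in GMP. The genes of this paragraph were picked among the 12 largest rises, which had to show no overlap in the 4 libraries. Only LSK 1 and GMP 2 were free to overlap, and for these 4 genes they did not. Of all 15846 tested genes, 34.1% did not overlap in the 6 libraries. The log2 fold changes of these 4 lay between 3.92 and 5.31 in the 6 libraries. Ltf, the lactoferrin gene, otherwise a marker of late neutrophils, stood at 64.7, 70.1 and 63.5 in LSK, against 8.08, 8.34 and 5.93 in GMP, and Serpina3f, a serine protease inhibitor gene, at 147, 136 and 233 in LSK, against 27.8, 28.3 and 25.1 in GMP. Both passed the threshold, at 3.15 ± 0.17 (adjusted p = 6.73e-05) and 2.67 ± 0.22 (adjusted p = 0.000351) on the log2 scale.

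**Figure D2:**
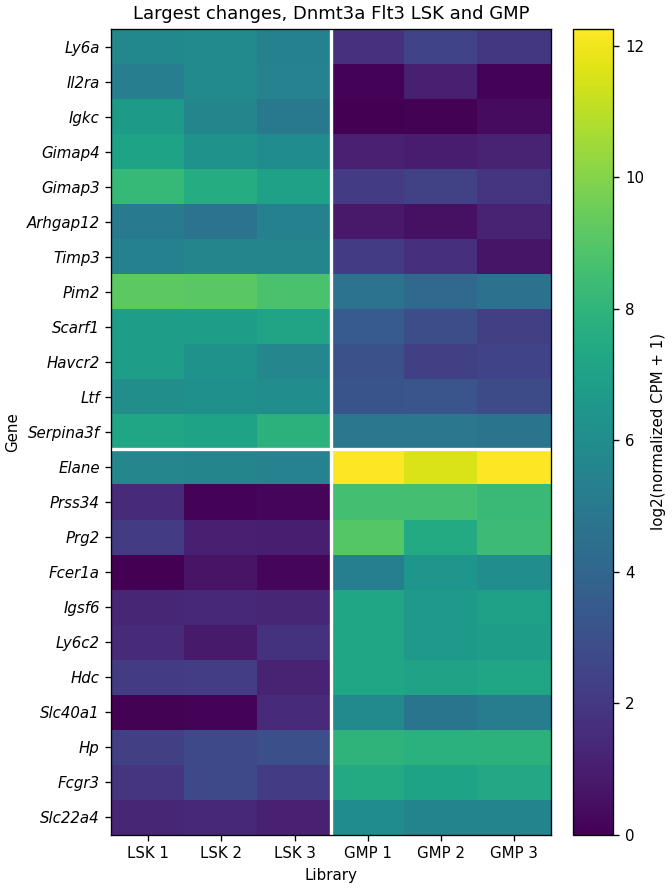
Level as log2(normalized CPM + 1) of the 12 largest rises (top) and 11 of the 12 largest falls (bottom) among abundant genes called in the 4 libraries with agreeing labels, with LSK 1 to 3 in the left columns and GMP 1 to 3 in the right columns. Rows were selected for the difference they show; LSK 1 and GMP 2 took no part in that selection, and Il2ra stood at 1.11 normalized CPM in GMP 2.

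Granule genes were the clearest fall. Of 12 genes of the primary granule list, all measured, 11 fell in LSK and 1 rose, with a median log2 fold change of -2.93. The list also holds myeloid genes that are not granule proteins, such as Igsf6 and Ms4a3. Elane fell by 6.52 ± 0.22 on the log2 scale. Prtn3, the proteinase 3 gene that lies beside Elane on chromosome 10, stood at 130.2, 148 and 176 in LSK, against 1628, 1379.6 and 1789.7 in GMP, a fold change of -3.40 ± 0.15 (adjusted p = 3.07e-05). Ctsg, the cathepsin G gene, stood at 358, 419 and 435 in LSK, against 2166, 2213 and 2264 in GMP, a fold change of -2.45 ± 0.08 (adjusted p = 1.4e-05). These are serine proteases of one granule, and LSK and GMP did not overlap for any of them, nor for 34.1% of all tested genes.

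Hp, the gene of haptoglobin, a haemoglobin-binding protein that neutrophils also store, stood at 3.98, 5.5 and 6.93 in LSK, against 249, 228 and 230.3 in GMP, with a log2 fold change of -5.44 ± 0.22 (adjusted p = 2.31e-05). Igsf6, an immunoglobulin superfamily gene of myeloid cells, stood at 1.45, 1.65 and 1.46 in LSK, against 148, 95.1 and 127 in GMP, a change of -6.34 ± 0.21 (adjusted p = 1.4e-05). Ms4a3, a gene typical of this progenitor stage, fell by 4.01 ± 0.15, while Cst7, Nkg7 and Serpinb1a fell by 1.17 to 1.25. Ctsc, the cathepsin C gene whose product activates the granule proteases, was the member that rose, at 373, 435 and 420.3 in LSK, against 262, 317 and 287 in GMP, by 0.50 ± 0.09. In the shared fit of the 4 libraries 9 of the 12 fell, without calls of Cst7, Nkg7 and Ctsc, and fitted alone they gave 11 falls and 1 rise. Without LSK 1 the counts were 11 and 1 again. Mpo was read in LSK too, at 2292 to 2919 normalized CPM, and it took 4.13% to 5.22% of all counts in GMP.

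The regions around the starts of 3 granule genes are shown because these genes fell together. They come from RefSeq on GRCm38.p6, plus strand, 250 bases before the start to 50 after it. Capitals mark the letters GAGGAA, which contain the core that ETS factors such as PU.1 bind.
Elane, chr10:79886062-79886361: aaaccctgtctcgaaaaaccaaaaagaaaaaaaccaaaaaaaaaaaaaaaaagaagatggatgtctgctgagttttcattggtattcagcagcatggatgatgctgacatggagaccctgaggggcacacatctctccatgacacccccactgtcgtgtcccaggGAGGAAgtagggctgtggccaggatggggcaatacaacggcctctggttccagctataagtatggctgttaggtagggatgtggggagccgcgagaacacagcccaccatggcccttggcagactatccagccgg
Prtn3, chr10:79879417-79879716: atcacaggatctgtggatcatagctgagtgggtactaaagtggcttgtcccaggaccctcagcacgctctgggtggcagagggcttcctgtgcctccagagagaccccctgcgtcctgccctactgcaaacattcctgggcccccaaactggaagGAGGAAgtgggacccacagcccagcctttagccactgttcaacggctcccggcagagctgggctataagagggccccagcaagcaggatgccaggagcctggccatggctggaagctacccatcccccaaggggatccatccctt
Mpo, chr11:87793534-87793833: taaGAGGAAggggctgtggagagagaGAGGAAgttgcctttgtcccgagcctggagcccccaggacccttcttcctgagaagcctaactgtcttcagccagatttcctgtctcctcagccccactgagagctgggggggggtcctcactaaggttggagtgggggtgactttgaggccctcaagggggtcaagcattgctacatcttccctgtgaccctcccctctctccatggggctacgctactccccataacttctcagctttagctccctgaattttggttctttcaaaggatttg
GAGGAA began 85 bases before the start in Elane, 95 bases before it in Prtn3, and 247 and 224 bases before it in Mpo, always on the plus strand. On either strand these letters occur in 28.3% of 32817 such windows. A match of letters is a description and not a binding site. TTNNGNAA, a loose form of the C/EBP motif found in 40.7% of windows, was absent from all 3 on both strands. The start region of Igsf6, another gene of the granule list that fell, held 5 matches to TTNNGNAA on either strand and GAGGAA once, on the minus strand.

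The largest falls of any list were those of basophil, mast cell and eosinophil genes. Of 11 genes, 10 were tested, 8 fell and 0 rose, with a median log2 fold change of -5.63. Prss34, a basophil protease gene, stood at 1.78, 0.0995 and 0.111 in LSK, against 387, 385 and 313 in GMP, a change of -8.90 ± 0.96 (adjusted p = 0.00124). Mcpt8, another basophil protease gene, stood at 72.3, 90.1 and 82.3 in LSK, against 777, 865 and 972 in GMP, a change of -3.42 ± 0.12 (adjusted p = 1.42e-05). Prg2, the major basic protein gene of eosinophils, stood at 3.33, 1.11 and 1.03 in LSK, against 524, 180.4 and 338 in GMP, and Fcer1a, the IgE receptor alpha chain gene, at 0, 0.583 and 0.166 in LSK, against 38.2, 86 and 63 in GMP. The GMP libraries were each far above all LSK libraries, although the GMP libraries spread widely among themselves for Prg2.

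Hdc, the histidine decarboxylase gene that makes histamine, stood at 3.55, 3.62 and 1.28 in LSK, against 148, 132 and 152 in GMP, with a log2 fold change of -5.67 ± 0.41 (adjusted p = 0.000201). Cpa3, the mast cell carboxypeptidase gene, stood at 35.4, 44.9 and 21.8 in LSK, against 359, 504 and 526 in GMP, with a change of -3.76 ± 0.29 (adjusted p = 0.000286). Gzmb and Il1rl1 were tested and did not pass. The summed level of the 11 genes was 112 to 144 normalized CPM in LSK and 2199 to 2421 normalized CPM in GMP. The 4 libraries gave 6 falls of 10 in the shared fit and 7 alone. Without LSK 1 it was 9 of 10. Whether the GMP sort held basophil or eosinophil progenitors was not tested.

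**Figure D3:**
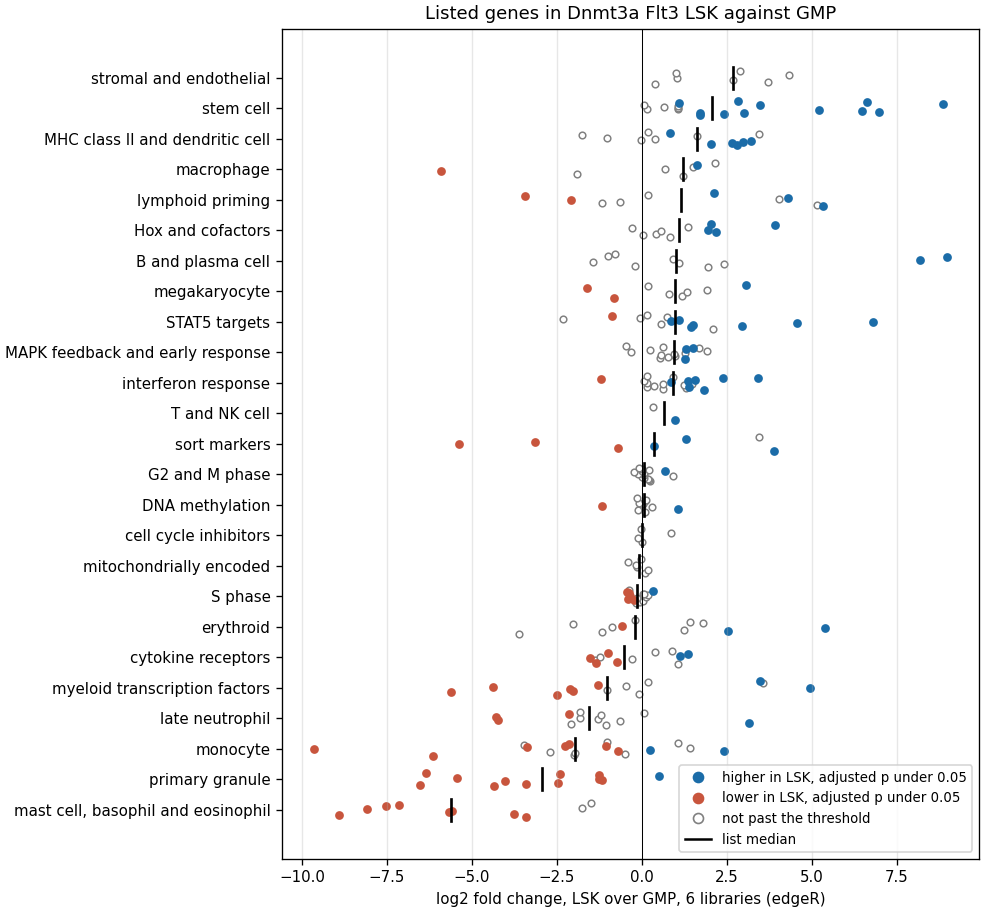
Log2 fold change of LSK over GMP in the 6 libraries for each tested member of 25 gene lists, 1 point per gene, with the list's median as a bar. Filled points passed the adjusted threshold; the mast cell, basophil and eosinophil list has the lowest median, -5.63, and stem cell genes have the highest among lists with called genes, 2.07.

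The myeloid transcription factors split. Of 15 factors 13 were tested, 6 fell and 2 rose, with a median of -1.03. Cebpa, a factor needed to form GMP, stood at 1.56, 0.952 and 1.26 in LSK, against 6.69, 5.92 and 8.62 in GMP, a change of -2.49 ± 0.34 (adjusted p = 0.00352). Cebpe, which drives later granulocyte stages, stood at 0, 1.05 and 0.305 in LSK, against 21.6, 15.6 and 27.6 in GMP, a change of -5.62 ± 1.24 (adjusted p = 0.025). Zeb2, a zinc finger repressor of monocyte and dendritic lineages, stood at 1.78, 3.16 and 2.21 in LSK, against 53, 46.7 and 49.8 in GMP, a change of -4.39 ± 0.25 (adjusted p = 8.31e-05). None of the 3 overlapped between the groups, nor did 34.1% of all tested genes.

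Irf8, a factor of monocyte and dendritic fate, fell by 2.12 ± 0.22, Gfi1, a repressor needed for neutrophils, by 2.03 ± 0.20, and Myb, a progenitor factor, by 1.30 ± 0.12. Gfi1b, the repressor of the erythroid and megakaryocyte branch, rose at 72.1, 93 and 91.8 in LSK, against 4.85, 5.62 and 12.6 in GMP, by 3.47 ± 0.39. Klf4, a monocyte factor, rose too, at 7.69, 1.62 and 1.46 in LSK, against 0.0421, 0.211 and 0.0904 in GMP, with all 3 GMP libraries under 1 normalized CPM. Sfpi1, the gene of PU.1, did not pass, with 36.8, 3.23 and 4.58 in LSK, against 34.1, 44.7 and 12.5 in GMP. For Sfpi1 LSK 1 lay among the GMP libraries while LSK 2 and 3 lay below all of them. In the shared fit of the 4 libraries 5 of 15 factors fell and 2 rose, Klf4 and Nr4a1, and fitted alone 7 fell and 3 rose.

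Monocyte genes followed the granule genes in part. Of 18 genes 17 were tested, 7 fell and 2 rose, with a median of -1.96. Ly6c2, the surface gene of inflammatory monocytes, stood at 1.71, 0.824 and 2.44 in LSK, against 148, 93.5 and 114 in GMP, a change of -6.15 ± 0.43 (adjusted p = 0.000181). Cd14, the lipopolysaccharide co-receptor gene, had 1 count in all LSK libraries together and 1027 in GMP, a ratio of 1131 in favour of GMP with a counting interval from 203 to 44721. Ccl9, a chemokine gene, stood at 13.7, 22 and 21.3 in LSK, against 208, 212 and 173 in GMP. Both were low in every LSK library.

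Cd68, a lysosomal glycoprotein gene, fell by 2.25 ± 0.20 and Lyz2, the lysozyme gene, by 0.71 ± 0.12. Ctss, the cathepsin S gene that trims the class II invariant chain, rose at 19.8, 15 and 10.2 in LSK, against 3.27, 1.63 and 3.41 in GMP, by 2.43 ± 0.39, and Psap, the saposin precursor gene, rose by 0.24 ± 0.06. Csf1r, the M-CSF receptor gene, did not pass, with 0.0242, 6.96 and 2.5 in LSK, against 15.6, 12.1 and 10.0 in GMP. LSK 1 was far below LSK 2 and 3 for Csf1r. Of 16 late neutrophil genes 12 were tested, 3 fell and 1, Ltf, rose. Lcn2, an iron-trapping granule gene, stood at 4.17, 6.47 and 5.12 in LSK, against 96.4, 90.6 and 106 in GMP, a change of -4.22 ± 0.19 (adjusted p = 3.66e-05), while S100a8 and S100a9, abundant genes of mature neutrophils, were at or under 2.46 normalized CPM in all 6 libraries.

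Stem cell genes were higher in LSK. Of 20 genes, 18 were tested, 12 rose and 0 fell, with a median log2 fold change of 2.07. Mycn, a Myc family factor of stem cells, stood at 638, 214 and 373 in LSK, against 42.8, 38.3 and 28.5 in GMP, a change of 3.48 ± 0.40 (adjusted p = 0.00168). Robo4, a guidance receptor gene that helps anchor stem cells, stood at 25, 19.5 and 20.3 in LSK, against 0, 0.0845 and 0.0502 in GMP, a change of 8.85 ± 0.66 (adjusted p = 0.000229). LSK and GMP did not overlap for either gene, nor for 34.1% of all tested genes, and LSK 1 had the highest level of each of the 2.

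Mecom, which encodes EVI1, a factor of stem cell renewal, stood at 25.3, 22.6 and 34.1 in LSK, against 6.98, 5.52 and 2.85 in GMP, a change of 2.42 ± 0.36 (adjusted p = 0.00513). Hlf, another factor of stem cell identity, was low throughout, at 8.18, 2.9 and 5.98 in LSK, against 1.92, 1.83 and 1.45 in GMP, a change of 1.71 ± 0.44 (adjusted p = 0.0426). Procr, the protein C receptor gene of long-term stem cells, rose by 3.01 ± 0.40, Mllt3, a chromatin reader gene, by 1.72 ± 0.23, and Angpt1, a ligand of the stem cell receptor Tie2, by 1.08 ± 0.18. Tek, the gene of Tie2, was not tested, at 0 to 0.185 normalized CPM in the 6 libraries. Hoxb5 had 265 counts in LSK and 2 in GMP, a ratio of 120.3 with a counting interval from 33.0 to 999. Txnip, a thioredoxin inhibitor gene of quiescent stem cells, stood at 129, 136 and 130.0 in LSK, against 119.6, 125 and 134 in GMP, and Gata2 at 62.9, 18.5 and 17 in LSK, against 27, 34 and 26.8 in GMP, both overlapping.

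The 12 rises of stem cell genes depended on the fit. With the spread shared with the Npm1 Flt3 libraries, the 4 libraries gave 1 rise, Robo4, of 20 genes tested, at a median of 2.26. Fitted alone, they gave 10 of 18 at a median of 2.34. Without LSK 1 the count was 10, with 1 fall. The medians moved by less than the counts did.

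Of the 7 markers used to tell such populations apart, 3 rose and 3 fell in LSK. Fcgr3, the Fc gamma receptor gene that defines GMP, stood at 2.6, 5.6 and 3.43 in LSK, against 178, 135 and 165 in GMP, a change of -5.37 ± 0.32 (adjusted p = 9.26e-05), and Fcgr2b, its inhibitory relative, fell by 3.15 ± 0.26. Kit, the stem cell factor receptor gene, stood at 280.3, 283 and 325 in LSK, against 525, 443 and 476 in GMP, a change of -0.70 ± 0.09 (adjusted p = 0.00291). Cd34 stood at 1402, 1518 and 1423 in LSK, against 1047, 1167 and 1150.1 in GMP, a change of 0.37 ± 0.06 (adjusted p = 0.00943), and Cd48 at 878, 1196 and 984 in LSK, against 403, 454 and 378 in GMP, a change of 1.31 ± 0.13 (adjusted p = 0.000723). Kit was thus lower and Cd48, a marker absent from the most primitive stem cells, higher in LSK. Neither overlapped, nor did 34.1% of all tested genes. Slamf1, the CD150 gene of long-term stem cells, stood at 1.69, 0.327 and 1.18 in LSK, against 0.0562, 0.0141 and 0.211 in GMP and did not pass.

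Targets of STAT5 were raised in LSK more often than lowered. Of 14 genes, all tested, 7 rose and 1 fell, with a median of 0.97. Besides Il2ra and Pim2, Socs2, a feedback inhibitor of cytokine receptors, stood at 607, 506 and 414 in LSK, against 181, 195 and 179.8 in GMP, a change of 1.46 ± 0.14 (adjusted p = 0.00065). Cish, another feedback inhibitor of the same family, stood at 86.7, 102 and 92 in LSK, against 32, 39.5 and 28.2 in GMP, a change of 1.49 ± 0.15 (adjusted p = 0.000847). Socs3 was lower in level, at 19.6, 6.61 and 12.2 in LSK, against 1.12, 1.72 and 2.12 in GMP, and rose by 2.95 ± 0.47. In all of them the LSK and GMP libraries were apart, as they were for 34.1% of all tested genes.

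Bcl2l1, the survival gene of BCL-XL, rose by 1.08 ± 0.20, and Osm, the oncostatin M gene, by 0.86 ± 0.20. Myc was the member that fell, at 456, 444 and 464 in LSK, against 865, 756 and 896 in GMP, by 0.88 ± 0.08. Ccnd2, the cyclin D2 gene, stood at 500.1, 611 and 575 in LSK, against 586, 606 and 569.8 in GMP, and Pim1 was at or below 4.16 normalized CPM in all libraries; neither passed. In the shared fit of the 4 libraries 4 rose, Socs2, Cish, Pim2 and Il2ra, and 0 fell, and fitted alone 6 rose and 1 fell. The start region of Cish is shown because it holds the STAT motif TTCNNNGAA, capitalised, from RefSeq on GRCm38.p6, plus strand.
Cish, chr9:107296409-107296708: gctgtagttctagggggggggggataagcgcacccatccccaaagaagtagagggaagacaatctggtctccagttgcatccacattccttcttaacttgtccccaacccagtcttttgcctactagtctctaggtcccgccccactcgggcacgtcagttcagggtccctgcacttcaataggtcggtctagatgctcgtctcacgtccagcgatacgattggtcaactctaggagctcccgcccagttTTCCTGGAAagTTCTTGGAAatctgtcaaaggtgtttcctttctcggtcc
The motif reads the same on both strands. It began at the first transcribed base and again 11 bases later, and it occurs in 8.29% of the 32817 windows. Start regions of Il2ra and Pim2 held none.

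Levels of Dnmt3a and Flt3, the mutated genes, gave no check of the mutations, since the labels do not give the alleles. Npm1, mutated in the other leukemia genotype, is given beside them. Dnmt3a stood at 77.9, 59.3 and 61.5 in LSK, against 79.6, 73.5 and 63.1 in GMP, a change of -0.12 ± 0.14 (adjusted p = 0.667), and Npm1 at 1352, 1619.9 and 1583 in LSK, against 1548, 1563 and 1369 in GMP, a change of 0.02 ± 0.09 (adjusted p = 0.905). Flt3 stood at 385, 123 and 203 in LSK, against 123, 136 and 82.6 in GMP, a change of 1.06 ± 0.40 (adjusted p = 0.135). LSK 1 was the highest library for Flt3, and LSK 2 lay between GMP 1 and GMP 2. Among 12 cytokine receptor genes, all tested, 2 rose and 4 fell. Il2rg, the common gamma chain gene, stood at 181, 157 and 171.9 in LSK, against 68.8, 68.7 and 63.3 in GMP, a change of 1.34 ± 0.09 (adjusted p = 0.000128), and Il1r1, the interleukin-1 receptor gene, rose by 1.12 ± 0.13. Csf2rb, the shared beta chain gene of the GM-CSF, IL-3 and IL-5 receptors, stood at 171, 148 and 157 in LSK, against 262, 285 and 249.9 in GMP, a change of -0.74 ± 0.08 (adjusted p = 0.00157), and the alpha chain genes Csf2ra and Il3ra fell too, by 1.34 ± 0.35 and 1.52 ± 0.31.

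Class II genes were among those that rose. Of 15 class II and dendritic cell genes 13 were tested, 6 rose and 0 fell, with a median of 1.64. Ciita, the master activator of class II genes, stood at 18.9, 12.3 and 17.8 in LSK, against 1.55, 1.24 and 2.47 in GMP, a change of 3.22 ± 0.35 (adjusted p = 0.00129). H2-Aa, a class II alpha chain gene, stood at 183, 152 and 151 in LSK, against 25, 18 and 26.2 in GMP, a change of 2.81 ± 0.17 (adjusted p = 0.000101), and Cd74, the invariant chain gene, at 439, 248 and 269 in LSK, against 39.6, 22.4 and 59 in GMP, a change of 2.98 ± 0.39 (adjusted p = 0.00285). Every LSK library was above every GMP library for these genes, as for 16.9% of all tested genes. H2-Ab1 and H2-Eb1 rose by 2.02 ± 0.19 and 2.65 ± 0.23, and Tcf4, a plasmacytoid dendritic cell factor, by 0.83 ± 0.13.

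Defining dendritic cell genes were near 0: Xcr1, Clec9a, Siglech, Cd209a and Batf3 were at or under 1.78 normalized CPM in all 6 libraries. H2-DMa stood at 142, 151 and 167 in LSK, against 157.6, 157 and 154 in GMP and overlapped. For the 4 libraries the shared fit gave 2 rises, Ciita and H2-Aa, and the fit alone 6 of 13. Without LSK 1 it was 6 of 14. Interferon response genes rose in 7 and fell in 1 of 19 tested, with a median of 0.92. Ifitm3, an antiviral membrane protein gene, stood at 249, 270.5 and 299 in LSK, against 119, 90.8 and 107 in GMP, a change of 1.37 ± 0.12 (adjusted p = 0.000507), and Rtp4, a chaperone gene induced by interferon, at 43.4, 18.3 and 27.5 in LSK, against 1.35, 2.48 and 4.56 in GMP, a change of 3.41 ± 0.52 (adjusted p = 0.00588). Gbp3, a guanylate-binding protein gene, was the member that fell, at 47.6, 71.9 and 76.2 in LSK, against 166, 152 and 134 in GMP. Without LSK 1, 5 interferon genes rose, and the 4 libraries gave 2 rises in the shared fit and 4 alone.

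Lymphoid genes were mixed. Of 11 early lymphoid genes 10 were tested, 3 rose and 2 fell, with a median of 1.15. Dntt, whose enzyme adds bases at antigen receptor joins, stood at 575, 387 and 313 in LSK, against 13.7, 13.3 and 4.97 in GMP, a change of 5.32 ± 0.46 (adjusted p = 0.000463). Ltb, the lymphotoxin beta gene, stood at 71.1, 8.16 and 33.4 in LSK, against 1.62, 1.97 and 2.16 in GMP, with a wide spread among LSK libraries. Notch1, the receptor gene that directs cells to the T lineage, fell by 2.10 ± 0.26. Il7r, the interleukin-7 receptor gene, stood at 6.18, 0.327 and 0.222 in LSK, against 0.0843, 0.0423 and 0.0602 in GMP, almost all of it in LSK 1, and did not pass.

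Of 11 B and plasma cell genes 10 were tested and 2, Igkc and Igj, rose. The summed level of the list was 86.2 to 242.1 normalized CPM in LSK and 60.8 to 63.3 normalized CPM in GMP, highest in LSK 1, and the part of B or plasma cells in those 2 genes was not tested. Cd3e, the defining T cell gene, was at or under 0.291 normalized CPM in all 6 libraries. Lck, a T cell kinase gene, was read in both cell types all the same, at 486, 511 and 409 in LSK, against 193, 261 and 265 in GMP, a change of 0.97 ± 0.14 (adjusted p = 0.00498). Every LSK library was above every GMP library for Lck, as for 16.9% of all tested genes.

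The Gimap genes, a cluster of immune GTPase genes on chromosome 6, were looked at as a family because Gimap3 and Gimap4 were among the largest rises, so they get no test of their own. All 8 in the table were tested across the genome and 7 rose. Gimap4 stood at 139, 77.4 and 61.5 in LSK, against 1.15, 0.915 and 1.24 in GMP, and Gimap3 at 291, 191 and 130.2 in LSK, against 3.43, 4.08 and 2.67 in GMP. Gimap6 stood at 303, 238 and 281 in LSK, against 69.6, 71.9 and 75 in GMP, a change of 1.92 ± 0.10 (adjusted p = 6.23e-05), and Gimap9 rose by 0.46 ± 0.10. Gimap1 did not pass, at 295, 59.8 and 145 in LSK, against 109, 108 and 87.1 in GMP, with LSK 2 below all GMP libraries and LSK 1 and 3 above them.

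Erythroid and megakaryocyte genes gave calls both ways, where 6.16% of all tested genes were called higher and 7.83% lower. Of 16 erythroid genes 14 were in the table, 11 were tested, 2 rose and 1 fell, with a median of -0.21. Car2, a carbonic anhydrase gene, stood at 737, 689 and 872 in LSK, against 142, 120.3 and 134 in GMP, a change of 2.54 ± 0.11 (adjusted p = 3.24e-05). Gata1, the erythroid master factor, stood at 1.7, 0.0569 and 0.277 in LSK, against 10.6, 7.8 and 7.14 in GMP and did not pass at an adjusted p of 0.0628. Every LSK library was below every GMP library for it, and 34.1% of all tested genes did not overlap in either direction. Without LSK 1 the erythroid list gave 1 rise and 2 falls. The summed level of the erythroid list was 819 to 997 normalized CPM in LSK and 313 to 366 normalized CPM in GMP, without overlap. Most of the LSK sum was Car2. Of 12 megakaryocyte genes 8 were tested, 1 rose and 2 fell, with a median of 0.99. The summed level of the megakaryocyte list was 720.1 to 824 normalized CPM in LSK and 328 to 410.0 normalized CPM in GMP, without overlap. Most of the LSK sum was a single gene, F2r, so the sum does not speak for the list. F2r, the thrombin receptor gene, stood at 500.5, 588 and 521 in LSK, against 56.5, 76.6 and 61 in GMP, a change of 3.05 ± 0.13 (adjusted p = 3.24e-05), whereas Itga2b, the CD41 gene of megakaryocytes, stood at 80.7, 109.7 and 93.4 in LSK, against 139, 184 and 175 in GMP, a change of -0.81 ± 0.15 (adjusted p = 0.012).

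Of 12 Hox genes and cofactors 10 were tested, 4 rose and 0 fell, with a median of 1.09. Meis1, a Hox partner of leukemia stem cells, stood at 139, 140.4 and 123 in LSK, against 37, 32.6 and 34.2 in GMP, a change of 1.95 ± 0.10 (adjusted p = 5.37e-05). Hoxa10 stood at 15.1, 12.8 and 14.1 in LSK, against 3.53, 3.11 and 2.62 in GMP, a change of 2.18 ± 0.23 (adjusted p = 0.00104), and Mn1, a cofactor gene that causes leukemia in mice when overexpressed, at 23.5, 30.1 and 23.5 in LSK, against 1.67, 0.676 and 2.69 in GMP, a change of 3.93 ± 0.49 (adjusted p = 0.00246). Hoxa9 stood at 56.3, 51.8 and 55.7 in LSK, against 43.4, 42.5 and 37.8 in GMP and missed the threshold at an adjusted p of 0.0512. It did not overlap, nor did 34.1% of all tested genes. Among 10 DNA methylation genes Dnmt3b, the sister enzyme of DNMT3A, rose at 111, 89.8 and 84.5 in LSK, against 49.3, 41.3 and 44.9 in GMP, by 1.08 ± 0.13, and Tet2, which removes methylation, fell at 24, 13.2 and 12 in LSK, against 45.9, 35.4 and 30.8 in GMP, by 1.18 ± 0.30. This is near the share over all tested genes, 6.16% higher and 7.83% lower, and says little about the list.

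Proliferation genes had small fold changes. Of 15 S phase genes 5 fell and 1 rose, at a median of -0.16. Mcm6, a replication helicase gene, stood at 1388, 1119.8 and 1227 in LSK, against 1618, 1638 and 1676 in GMP, a change of -0.40 ± 0.08 (adjusted p = 0.018), and Cdc45, its partner, fell by 0.43 ± 0.07. Of 15 G2 and M phase genes 1 rose, Cenpf, a kinetochore gene, by 0.67 ± 0.11, at a list median of 0.06. That is near the 6.16% called higher over all tested genes. Of 16 MAPK feedback and early response genes 15 were tested and 3 rose, among them Fos, an AP-1 gene, at 265, 166 and 104 in LSK, against 51.4, 78.1 and 87 in GMP, by 1.31 ± 0.34. Without LSK 1, 0 of these rose and 1 fell in edgeR, and Jun, at an adjusted p of 0.377 in the 6 libraries, changed sign. The 4 tested cell cycle inhibitor genes and the 6 tested mitochondrially encoded genes gave 0 calls.

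For the other lists the shared fit of the 4 libraries gave 2 rises and 2 falls of sort markers, 1 rise and 8 falls of monocyte genes, 1 and 2 of late neutrophil genes, 1 and 3 of cytokine receptors and 1 and 2 of early lymphoid genes. Hox genes and cofactors gave 2 rises there, B and plasma cell genes 1, erythroid genes 1 and MAPK feedback genes 1, while megakaryocyte genes gave 1 fall. DNA methylation, S phase and G2 and M phase genes gave 0 calls in that fit by edgeR, and there Dnmt3b had a change of 0.83 ± 0.29 (adjusted p = 0.262), Tet2 of -1.66 ± 0.48 (adjusted p = 0.116) and Mcm6 of -0.55 ± 0.38 (adjusted p = 0.781). Kit, at -0.78 ± 0.37 (adjusted p = 0.519), and Cd34, at 0.36 ± 0.29 (adjusted p = 0.843), did not pass there either. Fitted alone, the 4 libraries gave 3 rises and 3 falls of sort markers, 2 and 4 of cytokine receptors, 3 and 2 of early lymphoid genes, 4 and 0 of Hox genes and cofactors, and 1 and 1 of DNA methylation genes. They gave 1 and 8 of monocyte genes, 1 and 3 of late neutrophil genes, 2 and 0 of B and plasma cell genes, 1 and 2 of erythroid genes, 2 and 1 of megakaryocyte genes, 1 and 1 of MAPK feedback genes, 0 and 1 of S phase genes and 1 and 0 of G2 and M phase genes. Without LSK 1, 2 myeloid transcription factors rose and 8 fell, with 1 and 8 for monocyte genes and 7 and 2 for STAT5 targets. Cytokine receptors gave 2 and 5, early lymphoid genes 3 and 3, megakaryocyte genes 2 and 2 and S phase genes 0 and 5.

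Markers of other marrow cells gave these levels. The summed level of 11 macrophage genes was 29.5 to 86.1 normalized CPM in LSK and 47.1 to 69.0 normalized CPM in GMP, most of it Emr1 and Axl in LSK and Slc40a1 in GMP. The complement genes that define marrow macrophages, C1qa, C1qb and C1qc, were at or under 1.12 normalized CPM in all libraries. Slc40a1, the iron exporter gene, stood at 0.0646, 0.0711 and 1.84 in LSK, against 54.6, 25.7 and 34.7 in GMP, a change of -5.90 ± 1.27 (adjusted p = 0.0229). The summed level of 8 stromal and endothelial genes was 8.09 to 18.0 normalized CPM in LSK and 0.913 to 2.84 normalized CPM in GMP, with 0 of 7 tested genes called, and Cxcl12, the defining stromal chemokine gene, stood at 11.4, 3.55 and 0.555 in LSK, against 0.014, 0.113 and 0.622 in GMP. Their part in the results was not tested.

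The LSK-GMP difference was next set against that of the Npm1 Flt3 mice, in which the second mutation is of Npm1, the nucleolar protein gene. In a fit of 12 libraries, without LSK 1 and GMP 2, the difference itself differed between the genotypes for 58 of 21227 genes, 0.273%. It was higher in Dnmt3a Flt3 for 31 genes, 0.146%, and lower for 27, 0.127%. Within Npm1 Flt3, 980 genes were called, 4.62%, with 2.35% higher and 2.27% lower in LSK. Levels of the 2 genotypes were scaled apart, and only the differences within each are compared. Lck rose by 4.76 ± 0.26 in Npm1 Flt3 LSK and had a change of 0.94 ± 0.31 in the 4 Dnmt3a Flt3 libraries, a difference of -3.82 ± 0.40 (adjusted p = 0.00144).

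Of the basophil, mast cell and eosinophil list 2 of 10 tested genes had a lower LSK-GMP difference in Dnmt3a Flt3 and 0 a higher one. The change of Cpa3 was -3.79 ± 0.58 in Dnmt3a Flt3 and 0.40 ± 0.37 in Npm1 Flt3, a difference of -4.20 ± 0.67 (adjusted p = 0.0171), and that of Mcpt8 differed by -3.55 (adjusted p = 0.0197). Slc22a3, an organic cation transporter gene, had log2 fold changes of -0.33 ± 0.56 in Dnmt3a Flt3 and 3.64 ± 0.44 in Npm1 Flt3, a difference of -3.97 ± 0.72 (adjusted p = 0.0337). Vpreb1, the surrogate light chain gene of early B cells, was at 1.01, 0.313 and 0.652 in LSK, against 1.63, 1.06 and 1.23 in GMP, and in Npm1 Flt3 it ranged 15.2 to 101 normalized CPM in LSK and 0.277 to 0.648 normalized CPM in GMP. Its difference was -8.44 ± 1.01 (adjusted p = 0.00376).

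Of 15 tested class II and dendritic cell genes 2 had a higher difference in Dnmt3a Flt3 and 0 a lower one, and other genes differed in that direction too. Cd83, a maturation gene of dendritic cells, stood at 3.94, 4.36 and 2.95 in LSK, against 0, 0.366 and 0.0201 in GMP, and in Npm1 Flt3 it ranged 15.6 to 122 normalized CPM in LSK and 70.1 to 159.9 normalized CPM in GMP, a difference of 8.89 ± 1.19 (adjusted p = 0.00606). Klf4 changed by 4.40 ± 0.71 in Dnmt3a Flt3 and by -1.66 ± 0.40 in Npm1 Flt3 (adjusted p = 0.00606 for the difference). Fcgrt, the neonatal Fc receptor gene, stood at 12.2, 14.6 and 12.6 in LSK, against 0.969, 0.944 and 0.151 in GMP and its difference was 5.78 ± 0.86 (adjusted p = 0.013). Havcr2 rose in Dnmt3a Flt3 LSK and went the opposite way in Npm1 Flt3, where it ranged 32.2 to 119 normalized CPM in LSK and 159 to 338 normalized CPM in GMP, a difference of 4.95 ± 0.64 (adjusted p = 0.00606). The difference of Scarf1 was 3.87 (adjusted p = 0.0443). H2-Aa, Ciita and Ctss were also higher in this test (adjusted p = 0.0477, adjusted p = 0.0443 and adjusted p = 0.0259). Differences of genes read in only a few counts, such as Cd83 in Dnmt3a Flt3 GMP or Gimap3 in Npm1 Flt3 GMP, depend on the prior count that edgeR adds and bound nothing. The count of 58 moved to 5 without GMP 3, 20 without LSK 2, 21 without LSK 3, 37 without GMP 1 and 37 without Npm1 Flt3 LSK 1, and it was 393 by DESeq2. No member of the stem cell, primary granule or STAT5 lists was called in this test, at medians of -0.33, -0.64 and -0.08 against -0.07 for all tested genes; a difference that misses the threshold is not shown to be absent.

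**Figure D4:**
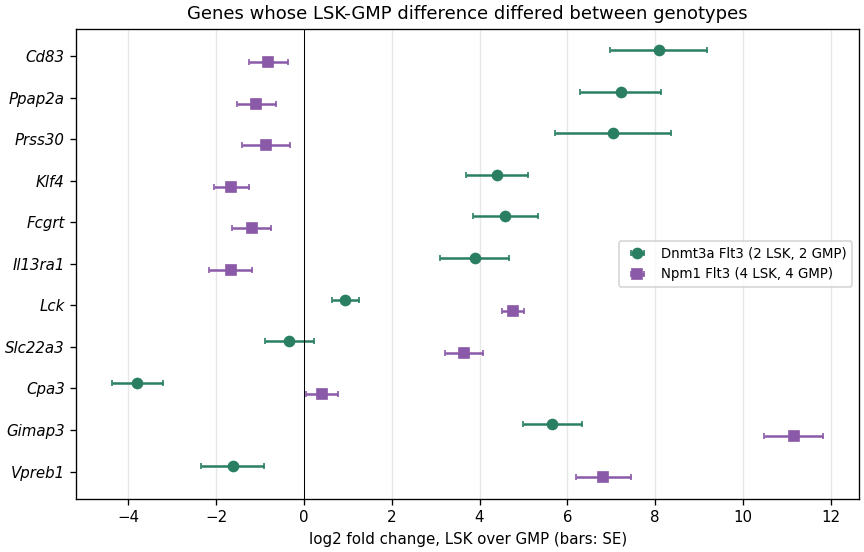
Log2 fold change of LSK over GMP with its SE in Dnmt3a Flt3 (circles, 2 LSK and 2 GMP libraries) and Npm1 Flt3 (squares, 4 and 4) for 11 of the genes named from the test of the difference. Cd83 stands at 8.08 in Dnmt3a Flt3 and -0.81 in Npm1 Flt3, and Vpreb1 at -1.62 in Dnmt3a Flt3 and 6.82 in Npm1 Flt3.

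WT cells of 4 weeks give the same sort without a mutation, in another table with 808900 to 2849650 counts per library, so values are given side by side without a test between tables. In WT, 3051 of 9415 tested genes were called, 32.4%, with 16% higher and 16.4% lower. Among 9330 genes tested in both, 905 were called in the same direction, 53.2% of the Dnmt3a Flt3 calls and 30% of the WT calls, and 44 in opposite directions. Genes of the primary granule list fell in 11 of 12 in WT as well, at a median of -3.74, and 16 of 17 stem cell genes rose, at a median of 3.41. Erythroid genes rose in 10 of 13 in WT at a median of 1.91, where Dnmt3a Flt3 gave 2 rises and 1 fall of 11 at -0.21. The tested members were not the same, since Car1 and Hba-a2 were tested in WT but not in the 6 libraries. In the shared fit of the 4 libraries the Dnmt3a Flt3 median was 0.24 over 14 tested genes, with 1 rise.

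Of the 44 genes called in opposite directions, 38 were lower in Dnmt3a Flt3 LSK and higher in WT LSK. Kit, lower by 0.70 ± 0.09 in Dnmt3a Flt3 LSK, was higher by 1.12 ± 0.19 in WT LSK. Itga2b changed by -0.81 ± 0.15 in Dnmt3a Flt3 and by 1.46 ± 0.23 in WT, and Slc22a3 by -0.38 ± 0.09 in Dnmt3a Flt3 and by 2.13 ± 0.44 in WT. Cd48 went the opposite way, higher by 1.31 ± 0.13 in Dnmt3a Flt3 LSK and lower by 0.47 ± 0.14 in WT LSK. Npm1 Flt3 gave the same directions as Dnmt3a Flt3 for Cd48, 0.84 ± 0.19 (edgeR adjusted p = 0.0179), and Kit, -0.94 ± 0.26 (adjusted p = 0.0555). There Slc22a3, at 3.64 ± 0.44, and Itga2b, at 0.54 ± 0.66 (adjusted p = 0.719), had the sign of WT. In the shared fit of the 4 Dnmt3a Flt3 libraries Cd48 still passed, at 1.42 ± 0.27 (edgeR adjusted p = 0.0124). Kit, Itga2b and Slc22a3 did not pass there (adjusted p = 0.519, adjusted p = 0.935 and adjusted p = 0.953). Flt3 rose by 2.66 ± 0.21 in WT LSK, against the 1.06 ± 0.40 that missed the threshold in Dnmt3a Flt3. Socs2 rose by 5.22 ± 0.52 in WT LSK and by 1.46 ± 0.14 in Dnmt3a Flt3 LSK. In WT it ranged 29.7 to 69.6 normalized CPM in LSK and only 0.555 to 2.30 in GMP, near 0 in these small libraries. In Dnmt3a Flt3 it ranged 414 to 607 normalized CPM in LSK and 180 to 195 in GMP.

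**Figure D5:**
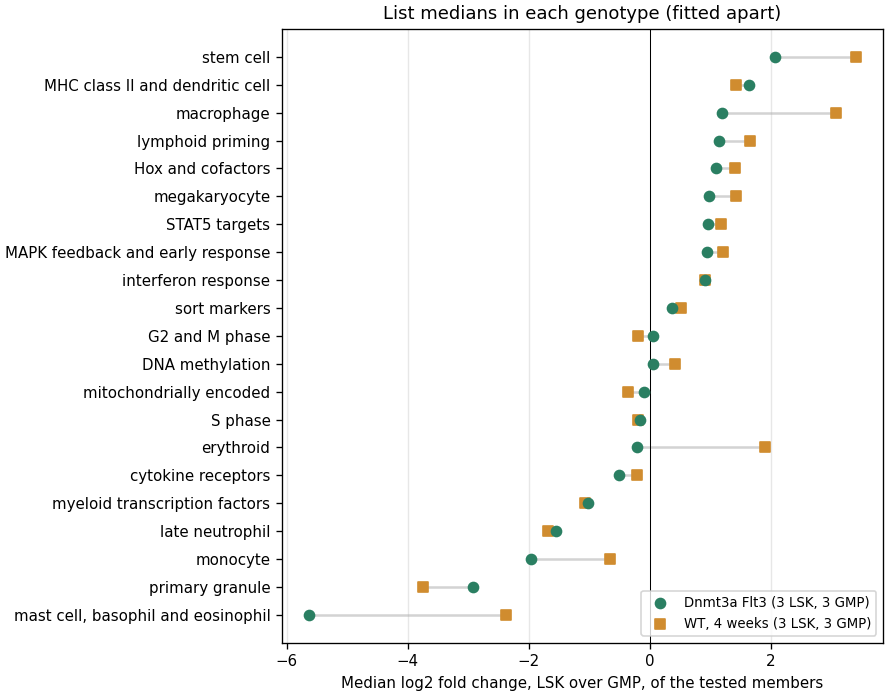
Median log2 fold change of LSK over GMP among the tested members of each list with at least 5 tested in both, in Dnmt3a Flt3 (circles, 6 libraries) and in WT at 4 weeks (squares, 6 libraries). The 2 genotypes were fitted apart on different numbers of tested genes, and the tested members of a list can differ. The erythroid list sits at -0.21 in Dnmt3a Flt3 and at 1.91 in WT. In the shared fit of the 4 libraries, not drawn, its Dnmt3a Flt3 median was 0.24.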

How the data were processed

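Bulk RNA was measured in sorted LSK and GMP cells. The deposited tables hold raw counts of reads per gene, which the authors made with STAR and featureCounts on mm10, per the submitters' processing notes; versions are not given in the sources used here. Per the labels' protocols, RNA came from Trizol and 2 library kits were in use, read from both ends or from a single end, and which kit made which library is not given. All columns of both tables were matched to samples (0 left out), and only the sorted LSK and GMP libraries of Dnmt3a Flt3, Npm1 Flt3 and WT mice at 4 weeks entered the fits. Replicate libraries all differed by more than sampling noise.

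Counts were tested with edgeR 4.0.16 (quasi-likelihood, robust, filterByExpr, TMM; limma 3.58.1, R 4.3.3) and Benjamini-Hochberg adjustment over all tested genes, with calls at 0.05. The SE is the size of the log2 fold change over the square root of F. Titles gave the cell type. The 6 Dnmt3a Flt3 libraries were fitted by themselves, the 4 with agreeing codes together with 8 Npm1 Flt3 libraries, which also gave the test of the difference between genotypes, and 6 WT libraries by themselves. Alternatives were DESeq2 1.42.0, median-ratio factors, no filter or a filter of 5 CPM, each replicate left out, grouping by code letter, a fit of 14 libraries, and blocks on title or code number. The steps were tested on simulated data. Where a group had 3 counts or fewer, the ratio of summed counts with an exact 95% counting interval is given, which covers counting error only.

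Named genes were the targeted genes, the label checks, the 12 largest rises and 12 largest falls called in the 4 libraries (mean log2 CPM of at least 4, no overlap, no predicted genes), up to 4 genes of each list by smallest p, the 6 smallest p in the 6 libraries, and the 6 largest differences between genotypes each way. Some genes that this rule names are not reported here. Other genes in the text were chosen after their values were seen. The members and lists were chosen with earlier results of these data known.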

Additional observations from a re-analysis of the deposited data

Results flagged for a closer look

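The difference between LSK and GMP differed between Dnmt3a Flt3 and Npm1 Flt3 for 11 genes named for the largest such differences. The interaction term of edgeR's quasi-likelihood test gave each an adjusted p between 0.00144 and 0.0344. On the log2 scale, Dnmt3a Flt3 minus Npm1 Flt3, the difference was higher by 8.89 for Cd83, 8.30 for Ppap2a, 7.90 for Prss30, 6.05 for Klf4, 5.78 for Fcgrt and 5.56 for Il13ra1. It was -8.44 for Vpreb1, -5.50 for Gimap3, -4.20 for Cpa3, -3.97 for Slc22a3 and -3.82 for Lck. Genes named by other rules passed the same test, among them Havcr2, Scarf1, Ciita, H2-Aa and Plac8. The difference of Plac8 was -2.06 ± 0.37 (edgeR adjusted p = 0.0322). Il13ra1, an interleukin-13 receptor gene, stood at 2.02, 1.34 and 2.76 normalized CPM in LSK, against 0.155, 2.06 and 0.110 in GMP, so that GMP 2, which was not in the fit, lay among the LSK libraries. Prss30, a serine protease gene, had 224 counts in the LSK libraries and 1 in the GMP libraries, a ratio of 203 with a counting interval from 36.1 to 8068. Ppap2a, a lipid phosphatase gene, stood at 5.24, 3.79 and 7.42 normalized CPM in LSK, against 0.0281, 0.0423 and 0.0402 in GMP.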

How the results depend on the processing

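The 2217 called genes of the 6 libraries became 1408 to 2317 with one replicate left out, 1420 in the 4 libraries fitted alone, 796 in the 14-library fit, 200 with the code number as a replicate block, 3319 with DESeq2, and 0 by code letter, with or without that block. The 397 of the 4 libraries became 103 to 166 with one replicate left out, where a lone library is assumed to vary like the others, 1021 with DESeq2, 1420 fitted alone, 796 with LSK 1 and GMP 2 added by title, 0 by code letter (362 at an unadjusted p under 0.05 in edgeR) and 130 with the code block. The split of the 397, 123 higher and 274 lower, became 142 and 214 with median-ratio factors and 493 and 528 with DESeq2, as the median log2 fold change of all genes moved from 0.11 to 0.24. For the difference between genotypes, 0.273% of tested genes were called, against 0.0211% to 0.371% with one replicate left out, 1.85% with DESeq2, 0.300% without a filter, 0.899% with the 5 CPM filter, 0.796% with LSK 1 and GMP 2 by title, 0.117% by code letter and 0.198% with the code block. The 3051 of WT stayed between 2441 and 3435.

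Numbers 93 and 95 each hold one cell type by title, so the code block rests on LSK 3 and GMP 3. Same-numbered deviations from the group means correlated by 0.0913, -0.0747 and 0.108 in Dnmt3a Flt3 and by 0.0054, 0.0035 and 0.0949 in WT. With 3 libraries a group, such values cannot decide whether title numbers pair the libraries. In WT, LSK and GMP libraries of the same title number also share a code number. With the title number as a replicate block, the counts were 1656 in the 6 libraries and 3176 in WT.

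By code letter the log2 fold change reversed for Flt3 (-0.35), Igkc (-0.37), Gimap4 (-0.017), Mycn (-0.18), Klf4 (-1.25), Nr4a1 (-0.55), Igj (-1.56), Jun (-2.18), Rtp4 (-0.030) and Slc22a3 (0.013). With the code block as well it reversed for Flt3 (-0.044), Fcer1a (0.33), Mpeg1 (0.41), Jun (-1.36) and Slc22a3 (0.020). Jun ranged from -0.96 (without LSK 1) to 2.22 with one replicate left out and was also reversed in the 4 libraries alone (-0.77) or in 12 (-0.81) and with the code block by title (-0.95). Npm1, near 0 throughout, was -0.022 without a filter, -0.0100 in 14 libraries, and -0.058 to 0.084 with one replicate left out. The cause of these moves was not tested.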

Other observations

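Signal transducer genes were among those called in opposite directions in the mutant and WT tables. Stat5b, a STAT5 gene, stood at 83.0, 53.6 and 62.4 normalized CPM in LSK, against 106, 96.7 and 103 in GMP, a log2 fold change of -0.62 ± 0.16 in Dnmt3a Flt3 (edgeR adjusted p = 0.0453), and it changed by 1.01 ± 0.22 in WT (adjusted p = 0.00119). Stat3, its relative downstream of interleukin-6, changed by -0.47 ± 0.12 in Dnmt3a Flt3 and by 0.81 ± 0.18 in WT. Trfr2, the second transferrin receptor gene, changed by -0.88 ± 0.14 in Dnmt3a Flt3 and by 1.63 ± 0.23 in WT, and Slc18a2, a vesicular monoamine transporter gene, by -0.66 ± 0.15 in Dnmt3a Flt3 and by 2.17 ± 0.25 in WT. In the shared fit of the 4 libraries Stat5b and Stat3 did not pass (edgeR adjusted p = 0.121 and adjusted p = 0.441). Trfr2 and Slc18a2 did not pass there either (adjusted p = 0.477 and adjusted p = 0.744). These genes were chosen after their values were seen, and the difference between the tables was not tested.

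Some genes were read in a single cell type. Cebpd, a C/EBP factor gene, had 0 counts in LSK and 63 in GMP, at least 23.1-fold lower in LSK on a floor of 3 counts over the group. Ifit3, an interferon response gene, had 198 counts in LSK and 0 in GMP, at least 59.9-fold higher in LSK. On the same floor the platelet chemokine gene Ppbp was at least 29.1-fold higher in LSK, from 96 counts, and the granzyme gene Gzma at least 20.3-fold higher, from 67 counts. These counts are summed over the libraries of a group. Ppbp stood at 0.178, 1.01 and 0.0416 normalized CPM in LSK, so most of it was in LSK 2. Gzma stood at 0.315, 0.398 and 0, so LSK 3 did not differ from GMP. None of the genes in this paragraph was tested in the 6 libraries.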
